A study of Schizosaccharomyces pombe with 2 samples.

Results

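The untranslated regions (UTRs) and isoforms of protein-coding genes were measured in untreated wild-type (WT) cells of the fission yeast *Schizosaccharomyces pombe*. A transcript model was kept when it ran over the whole annotated coding span, from the first to the last coding base, of exactly 1 protein-coding gene on its own strand. Of 26057 models on chromosomes I, II and III, 19888 (76.3%) met this rule, and they belonged to 4347 of the 5113 annotated protein-coding genes (85.0%, exact 95% interval 84.0 to 86.0). Across both libraries of the series there were 95880 models on these chromosomes. No measured value chose the members, which follow from the exon positions of the models and the RefSeq annotation of assembly ASM294v3.

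The study asked how nucleosome remodelers hold back antisense transcription, and sequenced full-length cDNA by PacBio Iso-Seq to annotate transcripts. The WT strain carried the markers h+ *ade6*-M216, *ura4*-D18 and *leu1*-32, grew in YES medium at 32 °C to mid-log phase (OD600 of about 0.5) and was left untreated. The other library was a pool of that strain and of a strain with the same markers that lacked both *hrp1* and *hrp3* (hrp1del::kanMX hrp3del), untreated or exposed to 14 mM caffeine or 200 ng/ml clotrimazole. Each library was sequenced in its own run and has no replicate, so no p-value was computed. Intervals of shares and medians cover counting error over genes or clusters only, and genes are not replicates of an experiment.

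A messenger RNA begins at the transcription start site, carries its coding sequence between a 5′ and a 3′ UTR, and ends where the nascent RNA is cut and given a poly(A) tail. Ribosomes enter at the cap and scan the 5′ UTR for a start codon, so an ATG upstream of the coding sequence can be met first. The 3′ UTR holds the signals for cleavage and many of the sites that set the stability of the RNA, and 1 gene can use several cleavage sites. In this text the 5′ UTR is the spliced length from the start of a model to the coding sequence, and the 3′ UTR is the spliced length from the stop codon to the end of the model. Each gene is represented by the median of its models unless stated otherwise.

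The strain labels could be checked at *ura4*, which *ura4*-D18 removes. No model covered its coding span (chromosome III, gene 115589 to 116625, minus strand) in either library. In WT, 2 models on this strand crossed the locus with an alignment gap of 1803 nt (115348 to 117150) that contained the whole gene, and 4 models of the pool had the same gap. The gap did not have the GT and AG ends of an intron. *hrp1* and *hrp3*, which WT carries, had 2 full-coding models each in WT.

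The starts of the models lay mostly at a pyrimidine followed by a purine. Starts within 50 nt of each other were joined into a cluster, and the position with the most models stood for it. In the largest start cluster of each gene, the first base was A in 65.1% and G in 33.2% of 4347 genes, and the base before it was T in 55.6% and C in 41.5%. A pyrimidine followed by a purine stood at 95.8% of these starts (95% interval 95.2 to 96.4), at 84.8% of the 1423 other start clusters (82.8 to 86.6) and at 18.6% of positions in the middle of coding sequences. The sequences across the starts of 8 genes show this step, with the base before the start and the first base of the RNA in capitals:
act1: gttataactTAccgtttacc
adh1: gcttttcttTAagcaagaga
tdh1: tcgcttctgTAtagatcatt
nda3: aacgaaactCAcctaccacc
pyk1: ccaaaaaggTAcctctacca
cdc2: aagcttaccCAcagcacaac
ste11: tgacttacaTAgtgagaatc
zfs1: cttccttctTGcccgacacg

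These sequences run 5′ to 3′ on the transcribed strand of ASM294v3. They cover II:1477324-1477343 (minus) for *act1*, III:1591282-1591301 (plus) for *adh1*, II:2807585-2807604 (plus) for *tdh1*, II:3965964-3965983 (minus) for *nda3* and I:3846666-3846685 (minus) for *pyk1*. Those of *cdc2*, *ste11* and *zfs1* cover II:1500199-1500218 (plus), II:3983363-3983382 (plus) and II:3487128-3487147 (minus). All 8 hold the pyrimidine and purine pair.

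The median 5′ UTR was 123 nt over 4347 genes (interquartile range 50 to 265, 95% interval of the median 117 to 129), and the median 3′ UTR was 210 nt (119 to 373, 205 to 216). The latter depended on the model taken for each gene, with 330 nt for the longest and 96 nt for the shortest. The 3′ UTR was the longer of both in 2814 genes (64.7%). Very short 5′ UTRs were more frequent than very short 3′ UTRs, with 1080 genes (24.8%) under 50 nt at the 5′ side and 183 (4.21%) at the 3′ side. At the other extreme, 97 genes (2.23%) had a 5′ UTR of 1000 nt or more and 113 (2.60%) a 3′ UTR of that length, and no gene had both. Across genes, the ranks of both lengths had a Spearman rho of -0.0045 (n = 4347 genes that share 1 library). Chromosome III had the longest medians, 141 nt (125 to 158) at the 5′ side and 253.5 nt (239 to 276) at the 3′ side, against 129 and 196.75 nt on chromosome I and 110.5 and 206 nt on chromosome II. UTRs were poorer in G and C than coding sequences, with median GC contents of 32.1% for 5′ UTRs, 29.5% for 3′ UTRs (both over UTRs of 20 nt or more) and 39.8% for coding sequences.

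**Figure D1:**
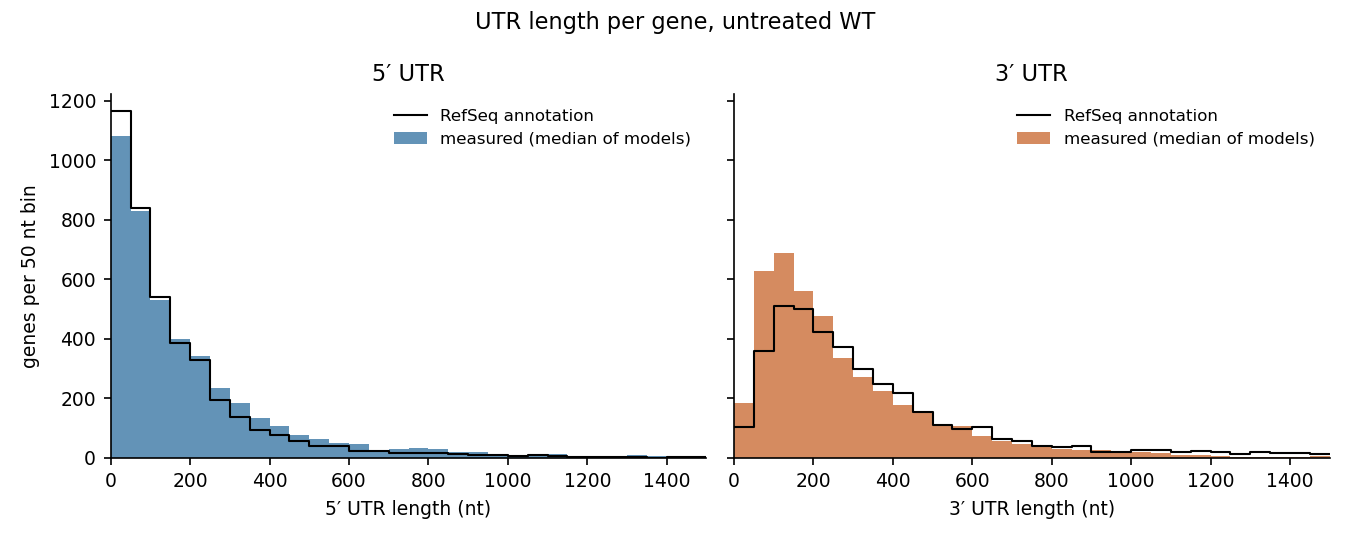
Genes per 50 nt of 5′ UTR length (left) and 3′ UTR length (right), drawn up to 1500 nt. Filled bars are the median of the models of each of 4347 genes and the black line is the RefSeq annotation of the same genes where it has that UTR. Measured and annotated 5′ UTRs have nearly the same shape, while measured 3′ UTRs lie to the left of the annotated ones.

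The median 5′ UTR equalled the annotation to the base in 1503 of the 4082 genes with an annotated 5′ UTR (36.8%), and it lay within 50 nt of it in 3560 (87.2%). The median difference was 0 nt (interquartile range 0 to 7). It was over 50 nt longer than annotated in 448 genes and over 50 nt shorter in 74 (1.81%). The 3′ side differed. Only 1.01% of 4169 genes matched the annotated 3′ UTR to the base, 39.4% lay within 50 nt, and the median difference was -53.5 nt (-135 to -5). The annotation is 1 transcript for nearly every gene while the measured value is a median over models, and the longest model of each gene differed from the annotated 3′ UTR by a median of 0 nt (-29 to 88). The annotation held no 5′ UTR for 602 genes and no 3′ UTR for 386. Full-coding models gave 265 of the former a 5′ UTR with a median of 207 nt (168 to 237) and 178 of the latter a 3′ UTR with a median of 369.75 nt (300 to 457).

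Among genes with at least 3 models, the longest median 5′ UTR belonged to *zfs1*, which encodes a CCCH zinc finger protein of the tristetraprolin family (chromosome II, 3482848 to 3487446, minus strand). Of its 16 models, 4 started 2778 to 2792 nt before the coding sequence, 7 at 2469 nt, 4 at 1632 to 1655 nt and 1 at 629 nt. Its leader was thus read in 4 clusters of starts that lay more than 300 nt apart, and the same median in the pool was 2467 nt. *ste11* (chromosome II, 3983376 to 3987400, plus strand), the HMG-box transcription factor that switches cells to mating and meiosis, had 5 models with 5′ UTRs of 1431, 2213, 2213, 2215 and 2215 nt and a pool median of 2213.5 nt. Apart from its shortest model, its starts fell within 3 nt of each other. *pat1*, the kinase that keeps vegetative cells out of meiosis, had 4 models with 362, 2052, 2052 and 2058 nt, and the annotation gives this gene no 5′ UTR. *pyp1*, a tyrosine phosphatase of the stress-activated MAP kinase Sty1, also has no annotated 5′ UTR and had 4 models with 1859, 1859, 1863 and 1881 nt. The pool median of *pyp1* was 1175 nt, from 2 models. *spo2*, a gene for a spindle pole body protein of sporulation, completed the 5 longest with 1759, 1973 and 4142 nt, but all 3 of its models began inside or beyond the coding span of the tandem gene 206 nt upstream.

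Among genes with at least 3 models, the shortest 5′ UTRs were 0 nt in *rsv2*, a zinc finger transcription factor whose 3 models all began on the first coding base, 1 nt in 2 of 3 models of *mgm101* (114 nt in the other), and 2 nt in 4 of 6 models of *trt1*, the telomerase reverse transcriptase (9 and 45 nt in the others). The annotation gives *rsv2* a 5′ UTR of 3 nt and the other genes none, and the pool medians were 3, 34 and 2 nt. In all, 55 genes (1.27%) had a median 5′ UTR under 10 nt.

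The longest 3′ UTR was that of *alp41*, a small GTPase gene of tubulin folding (chromosome I, 697286 to 703040, plus strand). Its 6 models ended 1798, 3328, 3341, 3341, 3396 and 3671 nt after the stop codon, all with a 5′ UTR of 5 nt. The unnamed gene SPBP8B7.32 had 7 models with 3′ UTRs from 1111 to 3413 nt and a median of 3228 nt, against 1858 nt in the pool. *clr4*, the histone H3 lysine 9 methyltransferase of heterochromatin, had models with 51, 2586 and 2607 nt, and the pool median was 459.5 nt. *chk1*, the DNA damage checkpoint kinase, had 417, 489, 2520, 2571 and 2689 nt, with a pool median of 1019 nt. *mrp17*, a mitochondrial ribosomal protein gene, had 5 models from 1991 to 2321 nt. The long 3′ UTRs of 3 of these 5 genes spanned a whole coding sequence on the other strand: *meu6* in *clr4*, *meu27* in *chk1* and *mug28* in *mrp17*. Such a nested span lay inside a 3′ UTR in 207 of all 4347 genes (4.76%), in 47 of the 113 genes with a 3′ UTR of 1000 nt or more (41.6%, 32.4 to 51.2), and inside a 5′ UTR in 17 genes (0.391%). A whole coding span needs a UTR long enough to hold it, so these shares depend on UTR length by construction.

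Among genes with at least 3 models, the shortest 3′ UTRs were found in *mdm10*, *arb1* and *nbs1*, which encode a subunit of the tether between mitochondria and the endoplasmic reticulum, an Argonaute-binding protein and a subunit of the Mre11 complex. The 3 models of *mdm10* ended 15, 15 and 16 nt after the stop codon, those of *arb1* 11, 16 and 65 nt, and those of *nbs1* 16, 16, 16 and 132 nt. In the pool the median of *mdm10* was 341.5 nt and those of *arb1* and *nbs1* were 33 and 16 nt.

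Of the 38 genes with well known roles that were looked up, 37 are annotated under their symbol, since *cmd1* is not a symbol of this annotation and calmodulin is *cam1*, and 32 had a full-coding model. The 5 without were *mei2*, *fbp1*, *nmt1*, *tor1* and *tor2*. *mei2* (the RNA-binding switch of meiosis), *fbp1* (gluconeogenesis) and *nmt1* (thiamine synthesis) had no sense model at all over their coding span in WT, but 2, 2 and 3 full-coding models in the pool. *tor1* and *tor2* encode kinases with coding sequences of 7008 and 7014 nt, and each had 6 sense models that covered a part.

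Regulators of the cell cycle and of the stress response were among those with long leaders. *cig2*, a cyclin of the G1 to S step, had a 5′ UTR of 1301 nt in 9 of 10 models and 1119 nt in the other. *rum1*, the inhibitor of Cdc2 in G1, had 908 nt in 4 of 5 models and 912 nt in the fifth. *cdc25*, the phosphatase that activates Cdc2, had 733 nt in 4 of 5 models and 833 nt in the other, and *cdc13*, the mitotic cyclin, had 658 to 668 nt in 8 of 10 models and 1011 and 1021 nt in the others. The Cdc2 kinase itself had 15 models with 87 to 135 nt, and *wee1*, which encodes the kinase that inhibits Cdc2, had 1 model with 432 nt. The cyclins, the inhibitor, the phosphatase and *wee1* thus lay above the upper quartile of all genes, 265 nt, and *cdc2* close to the median of 123 nt. *cdc18* (replication licensing) and *cdc10* (a transcription factor of the G1 to S step) had 2 models each, with 111 and 111 nt and with 210 and 244 nt. Both genes lay below that quartile.

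In the stress pathway the MAP kinase kinase gene *wis1* varied most at the 5′ side. Its 10 models began in 5 clusters, with 5′ UTRs of 92, 515, 785 to 819 (5 models), 1125 and 1485 to 1510 nt (2 models). *sty1*, the MAP kinase, had 213 to 227 nt in 9 of 10 models and 893 nt in the other. The bZIP transcription factors *atf1*, *pcr1* and *pap1* had medians of 577, 681 and 742 nt, with shorter models of 123 and 427 nt in *atf1*, 222 nt in *pcr1* and 344 nt in *pap1*. *gad8*, a kinase downstream of TOR complex 2, had 617 to 630 nt in 8 of 9 models and 303 nt in the other. *fil1*, a transcription factor of the response to amino acid starvation, had 930 to 982 nt in 9 of 10 models and 1914 nt in the other. *gcn2*, the kinase of the translation factor eIF2α in that response, had 2 models with 390 and 750 nt.

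Leaders of genes for metabolism, the cytoskeleton and other basic functions had medians from 24 nt in *ypt1* to 278 nt in *ade6*. *act1* (actin) had 57 nt in 12 of 15 models and 69, 77 and 263 nt in the others. *adh1* (alcohol dehydrogenase) had 67 nt in 11 of 12 models and 1551 nt in the other, *tdh1* (glyceraldehyde-3-phosphate dehydrogenase) had 42 nt in 4 of 5 and 1622 nt in the other, and *eno101* (enolase) had 41, 46 and 46 nt beside 1173 nt. These far starts rested on 1 model each. *pyk1* (pyruvate kinase) had 133 to 145 nt in 6 models, *nda2* and *nda3* (α- and β-tubulin) had 72 to 100 nt in 7 models and 45 to 58 nt in 10 of 11, and *ypt1* (a Rab GTPase) had 24 to 29 nt in 6. *tbp1* (TATA-binding protein) had 56 to 70 nt in 9 of 10 models and 430 nt in the other, *cam1* had 80 nt in 3 of 5, and *ras1* had 113, 136 and 355 nt. *leu1* and *ade6*, which carry marker alleles in this strain, had 66, 66 and 422 nt and a single model of 278 nt. For *ade6* the annotated 5′ UTR and the pool median, from 4 models, were both 56 nt.

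**Figure D2:**
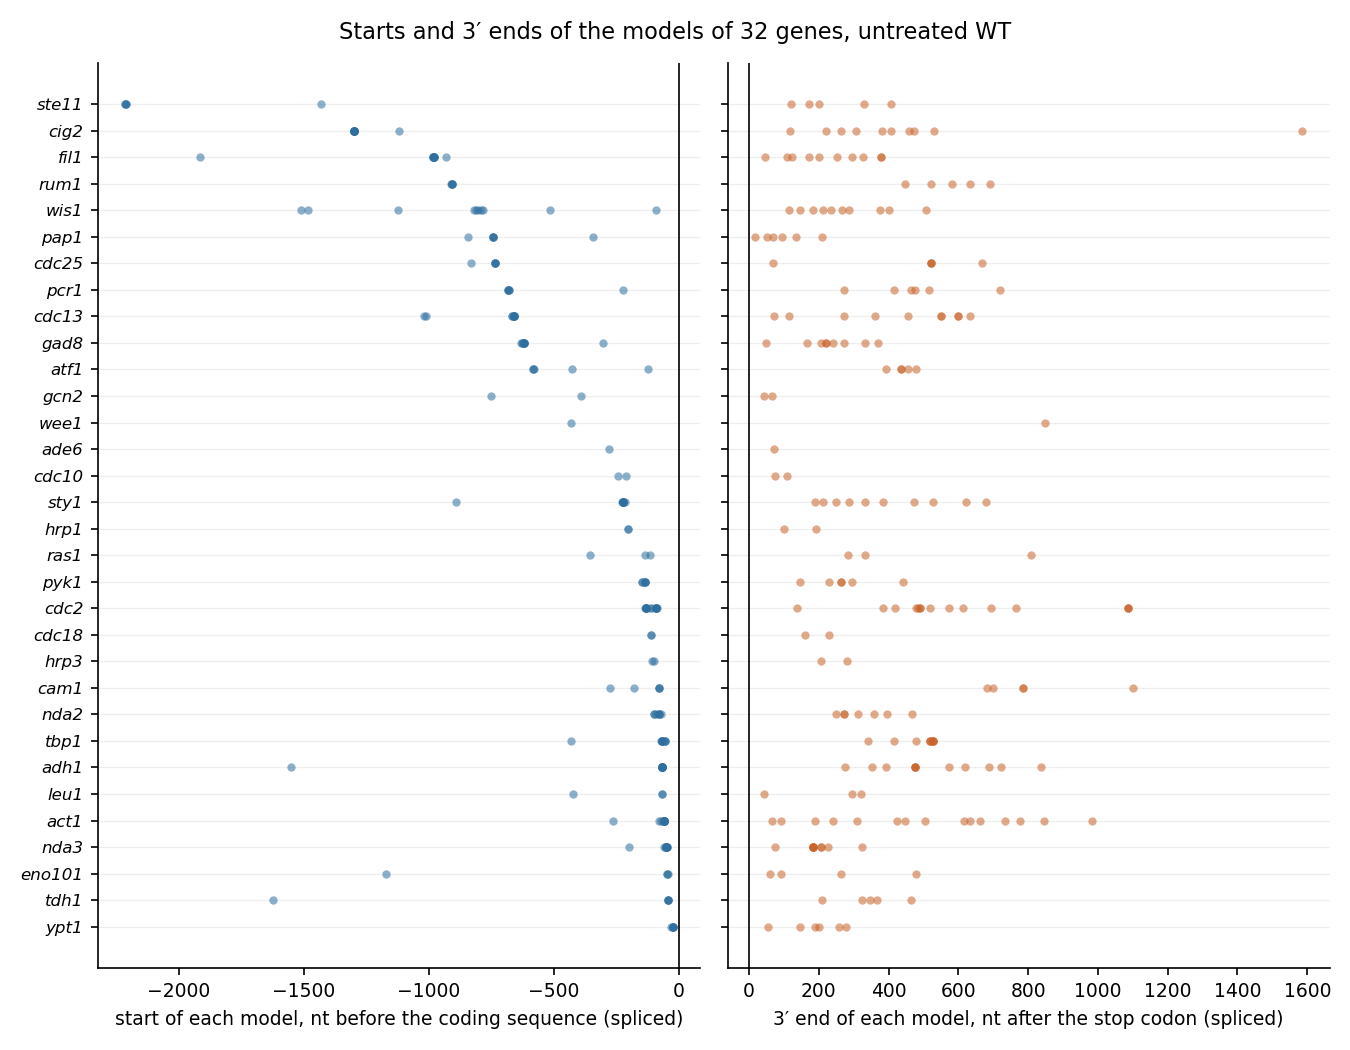
Starts (left, nt before the coding sequence) and 3′ ends (right, nt after the stop codon) of every full-coding model of 32 genes in untreated WT, 1 point a model, with genes ordered by median 5′ UTR. After the authors' collapsing, starts of *cig2* lie at 1301 nt in 9 of 10 models, and 3′ ends of *act1* run from 65 to 983 nt.

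The models of a gene differed at both ends, but the collapsing done by the authors treated the ends unequally, so the ranges at the 5′ and 3′ side cannot be compared as properties of the genes. It allowed 100 nt at starts and joined models that were shorter only at the 5′ side, while 3′ ends over about 10 nt apart stayed separate models. Over the 3027 genes with at least 3 models, the range of 5′ UTR lengths within a gene had a median of 24 nt (interquartile range 7 to 164.5) and the range of 3′ UTR lengths a median of 255 nt (144 to 511). The 15 models of *act1* (chromosome II, 1475485 to 1477333, minus strand) had 2 start clusters and 10 clusters of 3′ ends, whose 3′ UTRs ran from 65 to 983 nt. *cdc2* had 15 models in 1 start cluster and 7 end clusters (138 to 1087 nt), and *adh1* had 6 end clusters (276 to 836 nt).

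Full-coding models numbered 4 per gene in the median (interquartile range 2 to 6), and 3722 genes (85.6%, 84.5 to 86.7) had 2 or more. Start clusters numbered 2 or more in 1128 genes (25.9%, 24.6 to 27.3), clusters of 3′ ends in 3036 genes (69.8%, 68.5 to 71.2) and different intron chains in 1357 genes (31.2%, 29.8 to 32.6). In total the 19888 models fell into 5770 start clusters and 11203 end clusters. With 1 start cluster and several end clusters, 2101 genes (48.3%) formed the largest of 4 classes, while 1118 genes (25.7%) had 1 of each, 935 (21.5%) several of both and 193 (4.44%) several start clusters with 1 end cluster. With ends joined within 100 nt instead of 50 nt, 1873 genes (43.1%) had several end clusters. These numbers also depend on how the authors collapsed the models. Pairs of models of a gene with the same introns had the same start in 38.7% and 3′ ends 1 to 10 nt apart in 0.0449% of 42356 pairs, against 2.34% at 11 to 20 nt. The collapsing setting for uncapped libraries also joins models that are shorter only at the 5′ side, so starts downstream of another start can be missed.

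**Figure D3:**
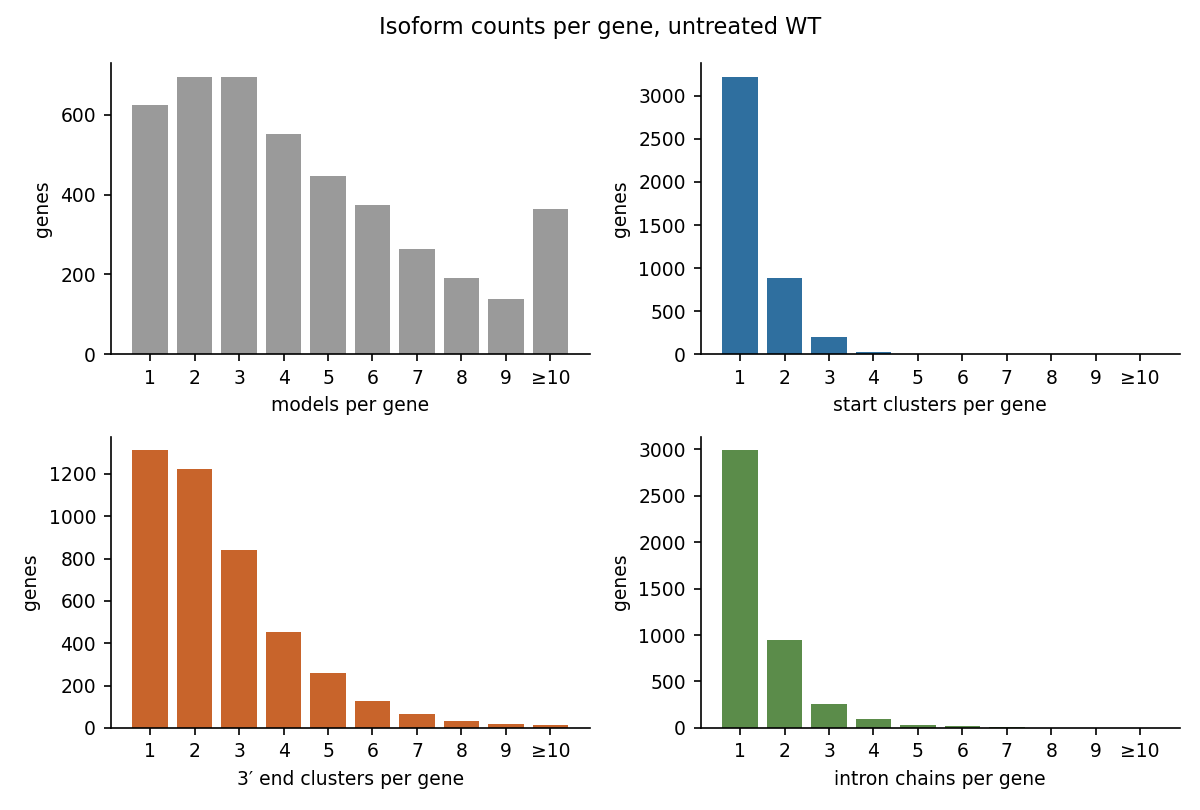
Genes (of 4347) by the number of full-coding models, start clusters, 3′ end clusters and intron chains per gene, with 10 or more drawn together. Start clusters and intron chains are mostly 1 per gene (3219 and 2990 genes), whereas 3′ end clusters reach 5 or more in 518 genes.

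*mfs1*, a transporter of the major facilitator family, had the most models, 27, followed by *mcp60* with 23, *grc3* (a polynucleotide kinase of ribosomal RNA processing) with 22, and *gmh6* (a galactosyltransferase) and *ste13* (the RNA helicase known as Dhh1 in budding yeast) with 21 each. They differed in where the variety lay. *mfs1* started at 81 to 142 nt in 25 models, and its models formed 3 end clusters and 7 intron chains. *grc3* had 1 start cluster (210 to 245 nt), 2 chains and 9 end clusters from 95 to 1401 nt. *mcp60* had 5 start clusters and 9 end clusters, and *gmh6* had an intron in the 5′ UTR of 11 of 21 models. *ppe1*, a gene for a protein phosphatase 6 catalytic subunit, also had 21 models and came sixth by identifier.

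*pac2*, a negative regulator of *ste11*, had the most start clusters, 7, with 5′ UTRs from 557 to 1796 nt in 16 models, and the annotation holds neither UTR for it (chromosome I, coding span 3006138 to 3006845, plus strand). *plb3*, a phospholipase gene, and SPCC594.02c had 6 start clusters each (235 to 1214 nt in 10 models and 692 to 2424 nt in 13). SPCC613.03, annotated as a calcium ion binding protein, had the most 3′ end clusters, 13, from 285 to 2327 nt behind 1 start cluster of 38 to 51 nt. *ade7* (purine synthesis) and *ppe1* followed with 12, spread over 76 to 1906 nt and 393 to 2155 nt. In *ade7*, 7 of 14 models ended inside the coding span of the tandem gene 576 nt downstream.

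Where a gene had several start clusters, the outermost lay a median of 281.75 nt apart (155 to 491.5, n = 1128), and where it had several end clusters 247 nt (131 to 511, n = 3036). Leaving out 203 genes with no single largest start cluster, there were 1161 other clusters. Of these, 772 (66.5%, 63.7 to 69.2) lay upstream of it, at a median distance of 290.5 nt, and 649 of those 772 (84.1%) rested on 1 model. Because the collapsing joins models that are shorter only at the 5′ side, downstream clusters can be missed. The upstream share therefore cannot be read as a property of the genes. The pool had a start within 50 nt of 95.4% of the largest clusters of genes with several, and of 64.2% of the others (61.7 to 66.7).

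Introns outside the coding span were a minority. A 5′ UTR intron was present in 303 genes (6.97%, 6.23 to 7.77) and a 3′ UTR intron in 174 (95% interval 3.44 to 4.63%). The same 5′ UTR intron was present in 2 or more models in 155 of the 303 genes, and in the others each such intron rested on 1 model. The 365 distinct 5′ UTR introns began with GT and ended with AG in 98.1% of cases and had a median length of 64 nt, and 122 of them (33.4%) were annotated. The spliced 5′ UTR of these genes was longer, with a median of 277 nt (240 to 313) against 113 nt (108.5 to 120) in genes without, and 70 of the 303 genes had such an intron in every model. The 200 distinct 3′ UTR introns had GT and AG ends in 91.5% and were annotated in 23.0%. Among the genes with well known roles, a 5′ UTR intron was removed in 8 of 15 models of *cdc2*, 8 of 10 of *cdc13*, 4 of 5 of *cdc25*, 4 of 5 of *atf1*, both of *hrp3*, and 1 each of *fil1* and *cam1*. The *cdc13* models that kept it are those with 5′ UTRs of 1011 and 1021 nt.

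Inside the coding span, 17592 models (88.5%) had exactly the annotated introns, and 4267 genes (98.2%) had at least 1 such model. Models that lacked an annotated intron and gained none made up 9.20%, and those with an unannotated intron 1.16% alone and 1.19% together with a lacking one. The collapsing by the authors allowed 100 nt at junctions, so models whose splice sites differed by less could be joined. These shares and the numbers of chains depend on that setting. Of 2023 genes with an annotated coding intron, 1041 (51.5%) had several intron chains, against 316 of 2324 genes without one (13.6%). The most chains were found in *osh41* (10 chains in 18 models, an oxysterol-binding protein), *trm5* (9 in 12, a tRNA methyltransferase) and *sce3* (9 in 12, a translation initiation factor). The annotated coding introns were complete in 8 of 18, 3 of 12 and 0 of 12 of their models.

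Upstream ATGs were found in many leaders, but they were scarcer than every other order of the same 3 bases. In the model nearest to the gene's median 5′ UTR, 1829 of 4347 genes (42.1%, 40.6 to 43.6) had at least 1 ATG before the coding sequence. Between models equally near, the shorter 5′ UTR was taken. The share depended on the model, with 37.8% for the shortest and 55.7% for the longest 5′ UTR of each gene. With the nearest model, it was 9.43% in 5′ UTRs under 50 nt, 51.6% from 100 to under 200 nt and 90.8% (79 of 87) at 1000 nt or more. ATG occurred 0.631 times per 100 nt of 5′ UTR and 1.87 times per 100 nt of 3′ UTR, while the other 5 orders of the same bases occurred 1.15 to 1.55 times in 5′ UTRs and 1.15 to 1.91 times in 3′ UTRs. The reading frame of an upstream ATG stopped within the 5′ UTR in 1607 genes (37.0%), ran out of frame into the coding sequence in 436 and was in frame with it without a stop in 45 (1.04%). The base 3 before the annotated start codon was A in 61.1% of 4338 genes (59.6 to 62.5), and before the 5496 upstream ATGs with such a base it was A in 22.0% (20.9 to 23.1). A at that position is known to favour initiation in eukaryotes.

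The leaders of *fil1* and *ste11* differed in this respect. *fil1* held 6 upstream ATGs, 769, 639, 584, 351, 348 and 188 nt before its start codon, with 1 to 10 codons before a stop, and all 6 had A at the third base before. *ste11* held 3 in a leader of 2213 nt, 2072, 1170 and 115 nt before its start codon, with T, C and T there. *fil1* was singled out after these bases were seen, and its production is known from earlier work to be controlled through upstream reading frames. The contexts are shown with each ATG in capitals:
fil1 upstream 769: tttcccaagATGtgt
fil1 upstream 639: ttacaaagcATGctt
fil1 upstream 584: tcattcaaaATGttg
fil1 upstream 351: ttctccaatATGatg
fil1 upstream 348: tccaatatgATGtaa
fil1 upstream 188: aagtgcattATGctt
fil1 start codon: tttgttatcATGaat
ste11 upstream 2072: tgattgtgaATGcta
ste11 upstream 1170: tgttggctcATGtta
ste11 upstream 115: acttcatttATGttt
ste11 start codon: ctctacacaATGtct

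These sequences run 5′ to 3′ on the plus strand of ASM294v3. In the order shown, those of *fil1* cover III:811877-811891, III:812007-812021, III:812062-812076, III:812295-812309, III:812298-812312, III:812458-812472 and III:812646-812660, and those of *ste11* cover II:3983505-3983519, II:3984407-3984421, II:3985462-3985476 and II:3985577-3985591. The *fil1* contexts at 351 and 348 nt overlap. Among the other genes with well known roles, *pap1* had 3 upstream ATGs, *cig2*, *rum1* and *gcn2* had 2, *cdc25*, *cdc10* and *atf1* had 1, and *ade6* had 6 in its single model, whose leader of 278 nt was longer than the 56 nt of the annotation and of the pool median. Over the 32 genes A stood at the third base before in 21 start codons (65.6%) and in 10 of 27 upstream ATGs (37.0%, 19.4 to 57.6), of which 6 were those of *fil1*, 3 of *ade6* and 1 of *gcn2*.

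The hexamer AATAAA, the canonical poly(A) signal, marked a minority of 3′ ends at a fixed distance. It was looked for on the transcribed strand in the 50 nt up to the end, and matched 1733 of 11203 end clusters (15.5%, 14.8 to 16.2). The share was 8.27% in the window 51 to 100 nt after the ends, 5.12% in the window 51 to 100 nt before them and 2.46% in the middle of coding sequences. It was 18.1% (16.9 to 19.2) for the largest end cluster of each gene and 13.8% (13.0 to 14.7) for the others. Where clusters had equally many models, the one at the lowest coordinate was taken as largest. This was so in *rum1*, whose end clusters held 1 model each. Matches peaked with their first base 21 to 25 nt before the end, with 609 matches against a mean of 108 per 5 nt beyond 20 nt after it. ATTAAA, its commonest variant in animals, matched 896 end clusters before the end (7.50 to 8.52%) and 806 in the window 51 to 100 nt after it (7.19%). TGTA, which holds the GUA bound by the termination factor Seb1, matched 34.4% of the 50 nt after the ends, 21.2% of the 50 nt before them and 14.4% of windows in coding sequences. Signals and ends without them are shown for the largest clusters of some of the 32 genes, except that *cdc18* has 2 clusters of 1 model each, of which the one with the hexamer is shown. AATAAA is in capitals and the last base is the end of the RNA:
cdc25: gaaaacgAATAAAacttttatttttaaatc
tdh1: atacttataAATAAAttttatgattttgat
cdc18: tatacaattAATAAAcactttaatctaagt
ras1: ccgttttAATAAAatacatctctttcattg
act1: acattagtattagcaaaagtttattaggtc
adh1: gaaatcaatgatattagaatcccatccttt
nda3: ttcatagctttgaaatgctccttacactct

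In the same order these windows cover I:479229-479258 (minus), II:2808965-2808994 (plus), II:2215912-2215941 (minus), I:2019473-2019502 (minus), II:1475517-1475546 (minus), III:1592858-1592887 (plus) and II:3964092-3964121 (minus). The hexamer lies within the window in *cdc25*, *tdh1*, *cdc18* and *ras1* and is missing from the windows of *act1*, *adh1* and *nda3*. None of the 10 end clusters of *act1* had it in its last 30 nt. The last base of a model was A in 5.16% and the next genomic base was A in 73.9%. An A of the genome at the cut cannot be told apart from the first A of the tail. How much of these shares comes from that was not tested. A run with at least 12 A in the next 20 genomic bases, where a primer could start inside the RNA, followed 10.1% of end clusters (9.59 to 10.7), 10.5% of the largest and 9.89% of the others.

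A TATA box of the letters TATAAA marked few starts. It matched 242 of 4347 genes (5.57%, 4.90 to 6.29) in the 50 nt before the largest start cluster, 5.64% in the 50 nt before that and 5.13% in the window 51 to 100 nt after the start, and the intervals of these shares overlap. Its matches were concentrated at 1 distance. Of all matches around the starts, 124 began 31 to 35 nt upstream, against a mean of 21.4 per 5 nt beyond 20 nt downstream, and only 6 began 46 to 50 nt upstream. Of 9 genes whose bases 45 to 16 before the start were read, *adh1* and *tdh1* had TATAAA, and *act1*, *cdc2*, *eno101*, *nda3*, *pyk1*, *ste11* and *ypt1* did not. Only these exact letters were looked for, and the paper used the broader consensus TATAWAWR. The windows of *eno101* and *ste11* hold TATATATA, which that consensus would match, so genes without TATAAA are not shown to lack a TATA box. TATAAA is in capitals for both genes with it, beside 3 without:
adh1: atggTATAAAtagtgggtggtggacaggtg
tdh1: ggaaaggTATAAAtagaggcaggcggtgcc
act1: gtaatcaacggcttcataccacctcagcca
cdc2: cctctgcgtttccactagtctatcgctagt
pyk1: catttcccggcctttatatacaggcaatcc

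These windows cover III:1591247-1591276 (plus), II:2807550-2807579 (plus), II:1477349-1477378 (minus), II:1500164-1500193 (plus) and I:3846691-3846720 (minus) in that order.

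**Figure D4:**
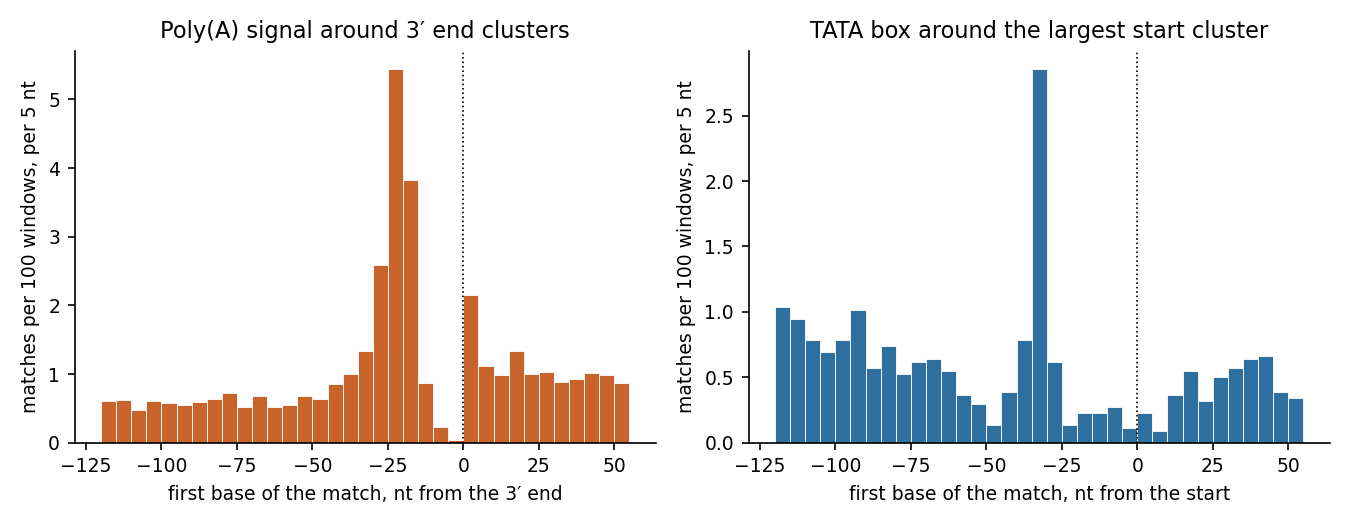
Positions of the poly(A) signal around 11203 3′ end clusters (left) and of the TATA box around the largest start cluster of 4347 genes (right), as matches per 100 windows in bins of 5 nt, with the end or start at 0. The poly(A) signal peaks 21 to 25 nt before the end and the TATA box 31 to 35 nt before the start.

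UTR lengths differed between groups of genes defined by symbol or product. Cytoplasmic ribosomal protein genes had the shortest, with medians of 21.5 nt at the 5′ side (95% interval 18.5 to 25) and 76.5 nt at the 3′ side (64 to 110) in 98 of 141 genes. The letters CAGTCACA (HomolD, the promoter element of these genes) stood on either strand in the 100 nt before the start in 62 of the 98 (63.3%, 52.9 to 72.8) and in 29 of 4249 other genes (0.683%), with a median of 51 nt from the first base of the match to the start, as in *rps1102* (aaagcaatgagCAGTCACAattatccacta, I:4674520-4674549, plus) and *rpl301* (cctaaaaagaaCAGTCACAatgtgttgaag, I:1756025-1756054, plus). Translation factors (50 of 50 genes) and proteasome subunits (41 of 44) also had short 5′ UTRs, with medians of 32.5 nt (24 to 53) and 33 nt (23 to 53), but 3′ UTRs of 179.25 and 247.5 nt that were near the median of all genes, 210 nt. An upstream ATG was found in 12% and 9.76% of these genes, against 42.1% of all. Both shares were close to that given above for 5′ UTRs under 50 nt. The groups were not compared with other genes at equal 5′ UTR length.

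Transporters had the longest median 5′ UTR of the lists, 290 nt (242.5 to 348) in 167 of 178 genes, and 53.3% of them had several start clusters, against 25.9% of all genes. Genes with transcription factor in their product name, which include general factors, had 206.25 nt (147 to 266) in 108 of 120, and protein kinases 164.5 nt (120 to 220) in 86 of 94. Their upper quartiles were 559 and 316.5 nt, and 9 of the 108 and 5 of the 86 had a median of 1000 nt or more, as 97 of all 4347 genes did. These transcription factors included *ste11*, *fep1* (iron, 1348 nt), *rst2* (glucose starvation, 1302 nt), *hsr1* (stress, 1860.5 nt) and *loz1* (zinc, 1003 nt), and the kinases *pat1*, *oca2* (1771 nt in all 5 models), *ppk1*, *ppk33* and *nnk1*. Those names were chosen after their values were seen. Genes named mug or meu, for upregulation in meiosis, had 246.5 nt (130 to 341) in only 52 of 110. An upstream ATG was found in 71.2% of those, which were not compared with other genes at equal 5′ UTR length. The 10 core histone and H2A.Z genes had medians of 107.5 nt (41 to 259) and 380.25 nt (298 to 723). Mitochondrial ribosomal proteins with exactly these words in the product were 7 of 11, with 74 and 294.5 nt. The words tRNA ligase found 3 genes, of which *trl1* is the ligase of tRNA splicing, and no median is given for them.

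**Figure D5:**
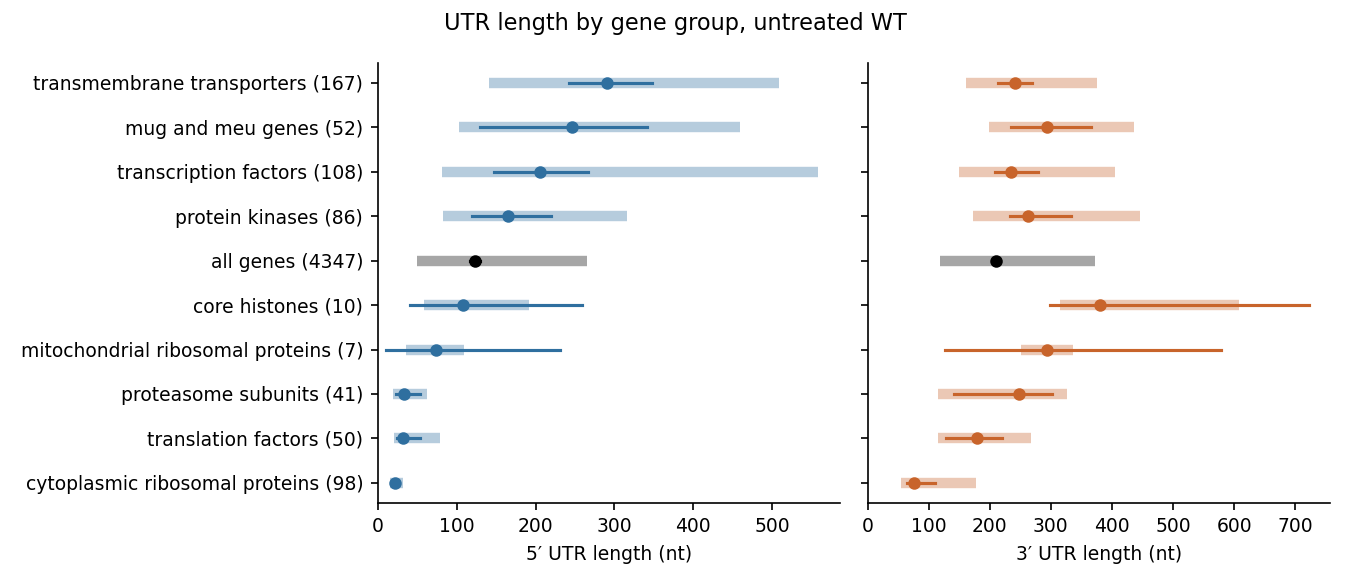
UTR length by gene group, 5′ (left) and 3′ (right). Points are medians over genes, thin lines their 95% order-statistic intervals, thick bars the interquartile ranges, and numbers in brackets the genes with a full-coding model. The 5′ medians run from 21.5 nt in cytoplasmic ribosomal proteins to 290 nt in transporters, with all genes at 123 nt.

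The neighbour on the chromosome also went with UTR length. The 5′ UTR had a median of 101 nt (95 to 110) in 1962 genes whose upstream neighbour is in tandem and 144 nt (133 to 153) in 2376 with a divergent one. The 3′ UTR had a median of 231 nt (220.5 to 244) in 1918 genes with a tandem downstream neighbour and 193.5 nt (186 to 201) in 2400 with a convergent one. Models that covered 2 or more coding spans on their strand (742 in WT) had been left out by rule. Long UTRs beside a tandem neighbour could be lost in this way at both sides. Room differed as well, since the next coding span was a median of 744 nt away in tandem and 382 nt away in convergent pairs. Where it was over 500 nt away the order of the 3′ medians turned, with 277 nt (265 to 292) in tandem and 285 nt (266 to 301) in convergent pairs, whose intervals overlap. Length and distance to the next coding span had Spearman rho values of 0.34 at both sides, over 4338 and 4318 genes of 1 library. In 722 of the 2400 convergent genes (30.1%) a model ended inside or beyond the coding span of the neighbour, and in 118 of the 1918 tandem genes (6.15%), where models that cover a further coding span had been left out by rule.

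The share of genes with a full-coding model changed with coding length. A full-coding model was found for 86 of 230 genes with under 300 nt of coding sequence (37.4%), 547 of 822 with 300 to under 600 nt (66.5%), 1824 of 1943 with 1000 to under 2000 nt (93.9%) and 28 of 71 with 5000 nt or more (39.4%). The median 3′ UTR fell over these classes, from 608.5 nt in the shortest to 113 nt in the longest. In the shortest class the annotated 3′ UTR had a median of 543.5 nt in genes with a model and 226 nt in genes without. It was longer in genes with a model in every class but the longest, with 177 nt against 229.5 nt there. The 3′ medians are those of the genes with a model in this library only, and the pool had a full-coding model for 83.9% of the shortest class. How far the genes covered set the fall of the 3′ medians was not tested. Kept models had a median spliced length of 1847 nt, and 6.15% were under 1000 nt. Of the 766 genes without a full-coding model, 311 had a sense model over part of the coding span, 455 had none, and 531 had a full-coding model in the pool.

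UTR lengths of the same genes were close in the pool, which had 41253 full-coding models of 4865 genes. Of the 4347 genes, 4334 had a model in both. The median 5′ UTR of WT lay within 50 nt of that of the pool in 83.7% of these genes and the 3′ UTR in 72.0%, and the median absolute differences were 2.5 and 25 nt. The pool had a start within 50 nt of 88.5% of 5754 WT start clusters (87.7 to 89.3) and a 3′ end within 50 nt of 96.6% of 11189 WT end clusters (96.2 to 96.9). The pool included the WT strain and had more models, and no share at other positions is given for comparison. Genotype, treatment, run and number of models differ between both libraries and cannot be told apart.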

How the data were processed

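Total RNA from untreated WT cells and from a pool was extracted with hot acid phenol and sequenced as PacBio Iso-Seq on the Revio platform. The authors made isoforms with Iso-Seq4, aligned them with minimap2 and merged near-identical ones in TAMA Collapse, allowing 100 nt at starts and junctions. The deposited files hold the positions and exons of each model, and a score that is 40 on every model, which was not used. Read numbers per model are not given in these files, so the depth behind each model is unknown. The submitters' processing notes name ASM294v2. ASM294v3 was used here, since no model passed a chromosome end and 97.2% of WT introns had GT and AG ends (0.145% when moved by 10 nt).

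Models were assigned to genes and measured with Python 3.11.15, NumPy 2.4.6 and SciPy 1.17.1, and drawn with Matplotlib 3.10.9. Ends within 50 nt were joined by single linkage. Shares have exact Clopper-Pearson intervals and medians have order-statistic intervals, both at 95%. Assignment, UTR lengths, clusters and coding introns were tested on simulated models of 1255 genes set apart from their neighbours, and 100% of the planted values were recovered. The simulated models had no varied starts, UTR introns, unannotated introns or overlap with neighbours, and motifs and upstream ATGs were not part of the test. Sequences come from the RefSeq genome. The text names 38 genes of known function, the 5 longest and 3 shortest UTRs of each kind among genes with at least 3 models, and the genes with the most models (5), start clusters, end clusters and intron chains (3 each), with ties broken by identifier. The members, gene lists and names were chosen with earlier results of these data known. The alternatives covered the assignment rule, the unit, the clustering distance, A-rich ends, motif windows and the pool.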

Additional observations from a re-analysis of the deposited data

Results flagged for a closer look

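The WT file also held models outside chromosomes I, II and III, which entered no comparison: 39 models on the mitochondrial sequence and 24 on the sequence of the telomeric gap of chromosome II.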

How the results depend on the processing

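Of 49 alternative settings of 18 results, 24 kept the value within its interval, or within 1.5 times for a count of genes, and 25 moved it. The median 5′ UTR was 165 nt with the longest and 101 nt with the shortest model of each gene and 134 nt in the pool. The median 3′ UTR was 330, 96 and 222 nt in the same settings and 242 nt over models. Measured minus annotated 5′ UTR was 9 nt with the longest model. In the pool 2871 genes had several start clusters, 2701 several intron chains and 724 a 5′ UTR intron, while 155 WT genes had the same 5′ UTR intron in 2 or more models. Joining ends within 100 nt left 1873 genes with several end clusters. AATAAA matched 12% of end clusters in 30 nt, 20.2% in 100 nt and 18.1% with 1 cluster per gene, and TATAAA 11.2% of starts in 100 nt. With neighbours over 500 nt away the medians were 122 (tandem) and 163 nt (divergent) at the 5′ side and 277 (tandem) and 285 nt (convergent) at the 3′ side. WT start clusters had a pool start within 20 nt in 83.5% and within 100 nt in 92.0%, and end clusters in 90.9% and 98.4%. The cause of these moves was not tested beyond what the settings fix by construction. No paired analysis was possible because each condition has 1 library. Without replicates or read numbers, the numbers of models and clusters per gene grow with an unknown depth, and rare models rest on single isoforms.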
